A study of Mus musculus with 8 samples.

Results

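The clustered protocadherins were taken as every gene in either count table whose symbol begins with Pcdha, Pcdhb, Pcdhga, Pcdhgb or Pcdhgc followed by a member number (or, in the alpha cluster, by c for the C-type genes). The rule found 59 genes among the 23420 of the E11.5 table and 58 among the 78298 of the E12.5 table, where Ensembl identifiers were first paired with symbols. The E11.5 set held 15 alpha, 22 beta and 22 gamma genes, and the E12.5 set held 14, 22 and 22, the difference being Pcdha4-g, which is listed at E11.5 alone. The measurements came from poly(A) RNA of dissected embryonic cortex at E11.5 or E12.5, each stage with 2 embryos labelled Mboat7+/-, which carry a single intact Mboat7 allele and served as controls, and 2 labelled Mboat7-/-, which carry none, 8 cortices in all. Mboat7 encodes the acyltransferase LPLAT11, which places arachidonic acid into phosphatidylinositol, and the knockout is global, so every cell of the embryo has the genotype. The stages were sequenced by different providers on different platforms and counted on different annotations, so genotypes were compared within a stage, and stage, provider and annotation cannot be told apart.

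Clustered protocadherins are cell surface proteins of the cadherin superfamily, encoded by the alpha, beta and gamma clusters, which lie in tandem on a single chromosome. In the alpha and gamma clusters, each variable exon has its own promoter and is spliced to constant exons that all genes of the cluster share, whereas each beta gene is a single exon with no constant part. A neuron switches on a small, largely random choice of the variable promoters, with help from CTCF and cohesin, and the C-type genes at the end of the alpha and gamma clusters are switched on more uniformly. The proteins recognize the same isoform combination on another membrane, by which the branches of a neuron tell self from non-self, and gamma isoforms are also needed for neurons to survive and to grow dendrites.

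The exon sharing limits what a count per gene can hold. On the GENCODE M21 annotation, used as a reference since the authors' annotations are not given in the sources used here, the beta genes had between 90.3% and 100% of their exonic bases to themselves, with a median of 100%. The corresponding median was 46.4% for the 12 alpha genes that are not C-type and 55.2% for the 19 gamma genes of the A and B types. Pcdha4 had the smallest unshared part of the alpha genes, 8.6%. Over the whole exonic sequence, constant exons included, 20.4% to 65.9% of the 50-base windows of gamma genes also occurred in another gene, against 0% to 12.0% for beta genes. Reads from the constant exons cannot be assigned to 1 gene, and how the authors' counting treated them is not given in the sources used here, so the counts below need not hold all the transcripts of a gene.

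The total count per cortex lay between 21843330 and 28189771 at E11.5 and between 20799311 and 23330432 at E12.5, and a count of 3, taken as the floor of detection, corresponded to 0.106 to 0.144 CPM. The floor covers counting error only. Mboat7 itself had 700 and 876 counts in Mboat7+/- cortices at E11.5 against 1103 and 860 in the cortices labelled Mboat7-/-, and 739 and 782 against 730 and 729 at E12.5 (edgeR quasi-likelihood FDR = 0.527 and 0.957). Its counts were thus not lower at E11.5 where the label gives the knockout, so they do not check the labels, and the genotypes are given as labelled. Low values of the E11.5 table were mostly even: of 90 member values from 1 to 20, 84 were even (93.3%), against 16 of 36 (44.4%) at E12.5. The reason is not given in the sources used here. Markers of neurons and radial glia were present throughout. At E11.5 the 14 neuron genes summed to 1715 to 2831 CPM and the 10 radial glia genes to 3553 to 4116 CPM. At E12.5 the sums were 4062 to 4362 CPM and 2789 to 3213 CPM.

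The gamma cluster carried most of the clustered protocadherin counts. At E11.5 it held between 87.9% and 93.5% of them in each cortex, and at E12.5 between 85.0% and 88.1%. All 22 gamma genes were above the floor in all 8 cortices. At E11.5, by contrast, only 7 to 10 of 15 alpha genes and 17 to 19 of 22 beta genes were above it in a given cortex, and at E12.5 the numbers were 12 to 13 of 14 and 21 of 22. Pcdhb1 had no count in any cortex at either stage, and Pcdha1, Pcdha4 and Pcdha4-g had none at E11.5. A count of 0 bounds only the reads that were assigned to a gene, at up to the floor given above. Pcdha4, with 8.6% of its exonic bases unshared, had 41 and 59 counts in Mboat7+/- against 41 and 53 in the E12.5 table. That table does not list Pcdha4-g, and whether this accounts for the E11.5 zeros was not tested.

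**Figure D1:**
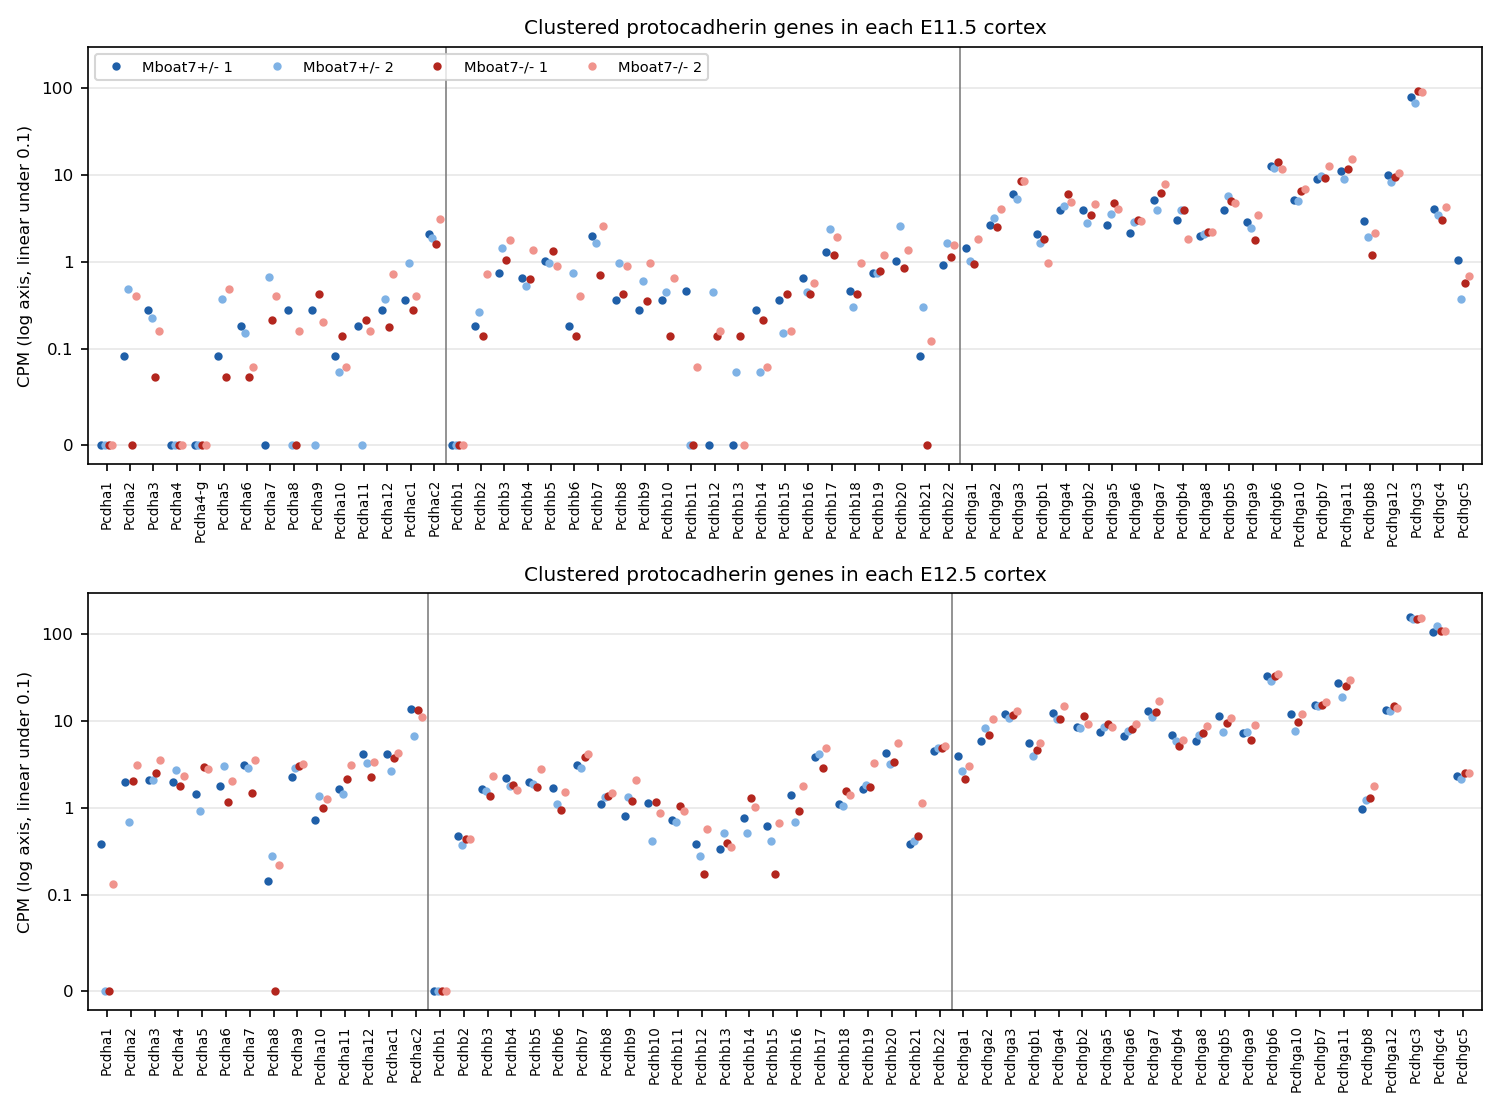
CPM of every clustered protocadherin gene in each cortex (log axis, linear under 0.1), in the order of the genes within the alpha, beta and gamma clusters, which grey lines separate. Blue points are Mboat7+/- cortices, red points are cortices labelled Mboat7-/-, and the number is the replicate. Pcdhgc3 is the highest gene in both tables, and Pcdhgc4 stands beside it at E12.5 alone.

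The leading gene was Pcdhgc3, a C-type gene whose protein binds Axin1 and promotes dendrite growth. It took between 42.3% and 47.1% of the gamma counts at E11.5 and between 30.6% and 33.4% at E12.5. Per kilobase of unshared exon on the GENCODE M21 reference, which need not be the exons the authors counted, its mean level at E11.5 was 24.7 CPM. The 12 gamma A genes had a median of 1.68 CPM per kilobase (0.406 to 4.48) and the 7 gamma B genes one of 1.06 (0.629 to 4.96), so that Pcdhgc3 stood well above every other member on this scale. Pcdhgb6, at 4.96, and Pcdhga11, at 4.48, followed. Beta genes reached at most 0.499 CPM per kilobase (Pcdhb7) around a median of 0.120, and alpha genes that are not C-type reached at most 0.158 (Pcdha12) around a median of 0.0639. In the alpha cluster the C-type gene Pcdhac2, which is known for the spacing of serotonergic axons, was highest at 0.726 CPM per kilobase and took between 36.0% and 50% of the alpha counts.

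At E11.5, the summed level of the gamma cluster in Mboat7+/- was 178 and 162 CPM, against 201 and 208 CPM in the cortices labelled Mboat7-/-. Both of the latter were above both of the former, with means of 170 ± 11.6 and 204 ± 5.17 CPM (SD, n = 2) and a log2 ratio of 0.27. Most of the difference between the genotypes lay in Pcdhgc3 and in the A type genes. Pcdhgc3 was at 79.5 and 68.3 CPM against 94.5 and 91.3 CPM. The 12 gamma A genes summed to 55.2 and 51.3 CPM against 63.8 and 73.0 CPM, a log2 ratio of 0.36, whereas the 7 gamma B genes summed to 38.0 CPM in both Mboat7+/- cortices and to 38.9 and 39.0 CPM in the others, a log2 ratio of 0.04. A and B genes are interspersed along the cluster. The split of the gamma genes by type was made after the values were seen and was not tested. No test was run on cluster sums, since they are scores over the members.

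In the test over all genes (edgeR quasi-likelihood with Benjamini-Hochberg adjustment), 40 members passed the filter on low counts at E11.5, namely 4 alpha, 14 beta and all 22 gamma genes. None had an FDR under 0.05, where 0% of the 14935 genes tested had one. At an unadjusted p under 0.05, 3 members were higher in the cortices labelled Mboat7-/- and none lower, and over all genes 7.94% were higher and 5.81% lower. DESeq2 gave 2 members at that unadjusted level, beside 10.4% of all genes. Under an FDR of 0.05 it gave no member and 168 genes in all. The 3 members were Pcdhgc3, Pcdhga3 and Pcdhga7. Pcdhgc3 had a log2 fold change of 0.33 (SE 0.089, edgeR FDR = 0.210). With the replicate number, which the labels give also as a batch, as a block, its FDR was 0.0453, with no filter on low counts it was 0.0459, and without the second cortex labelled Mboat7-/- it was 0.0257, so its call depended on these choices. Those fits called 349, 317 and 1180 genes in all, and with the length and GC trend removed beside the block the FDR of Pcdhgc3 was 0.158. Leaving out the second Mboat7+/- cortex left no member with an unadjusted p under 0.05, where 6.39% of all genes had one, and leaving out the first cortex labelled Mboat7-/- gave 4 higher and 1 lower, where 11.8% of all genes had one, against 13.8% with all cortices.

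Pcdhga3 had counts of 130 and 139 in Mboat7+/- against 241 and 211 in the cortices labelled Mboat7-/-, or 6.004 and 5.25 CPM against 8.52 and 8.54 CPM, with a log2 fold change of 0.60 (SE 0.209, edgeR FDR = 0.276). Pcdhga7 was at 5.22 and 3.93 CPM against 6.19 and 7.98 CPM, with a log2 fold change of 0.63 (SE 0.26, edgeR FDR = 0.332). For both genes the genotypes did not overlap. Nor did they for Pcdhga11, the most abundant A gene, though its nearest cortices lay close together, at 11.2 and 9.03 CPM against 11.6 and 15.4 CPM (log2 fold change 0.42, SE 0.205, edgeR FDR = 0.415). Pcdhgb6, the most abundant B gene, did overlap, at 12.8 and 12.1 CPM against 14.1 and 11.9 CPM. In all, 10 of the 40 tested members had both labelled Mboat7-/- cortices above both Mboat7+/- cortices, 25.0%, and none had them below, while over all genes tested 23.1% were above and 23.3% below. Of these 10 members, 8 were gamma A genes, 1 was Pcdhgc3 and 1 was a beta gene.

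In the other C-type genes of the gamma cluster the genotypes overlapped at E11.5. Pcdhgc4, which is needed for the survival of interneurons, had 88 and 92 counts against 85 and 106, and Pcdhgc5, whose protein binds GABA-A receptors, had 23 and 10 counts against 16 and 17. Their log2 fold changes were -0.05 (SE 0.304) and -0.18 (SE 0.685). The lowest p among members with a negative fold change belonged to Pcdhac1, Pcdhb20 and Pcdhgb8, and none of the 3 separated the genotypes. Pcdhac1 had 8 and 26 counts against 8 and 10, Pcdhb20 had 22 and 69 against 24 and 34, and Pcdhgb8 had 64 and 51 against 34 and 53.

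The alpha and beta clusters at E11.5 were spread by replicate number rather than by genotype. Summed alpha levels in Mboat7+/- were 4.25 and 5.25 CPM, against 3.29 and 6.44 CPM in the cortices labelled Mboat7-/-, and summed beta levels were 12.1 and 16.9 CPM against 10.7 and 18.6 CPM. In both genotypes the second replicate was the higher, and the genotypes overlapped. The log2 ratios between genotypes were -0.04 for alpha and -0.02 for beta, smaller than the SD of the log2 values within either genotype (0.22 and 0.69 for alpha, 0.35 and 0.57 for beta). Of 14 tested beta genes, 13 were higher in the second than in the first cortex labelled Mboat7-/-, and 9 were higher in the second than in the first Mboat7+/- cortex, while over all genes these shares were 47.9% and 50.3%. Pcdhb17 was higher in the second replicate of both genotypes, with 28 and 64 counts in Mboat7+/- against 34 and 48 in the others. Pcdhb7 was so only in the cortices labelled Mboat7-/-, at 1.99 and 1.66 CPM against 0.707 and 2.63 CPM. Neuron markers were also lowest in the first cortex labelled Mboat7-/-. They summed to 2507 and 2831 CPM in Mboat7+/- against 1715 and 2659 CPM in the others, with no marker at 0 counts. None of the 14 genes had a log2 fold change above 0, beside 49.0% of all genes, and their median was -0.21. At an unadjusted p under 0.05, 1 was lower, beside 5.81% of all genes, and none had an FDR under 0.05 (edgeR quasi-likelihood, lowest FDR = 0.296). The part of neurons in the protocadherin values was not tested. In bulk tissue, fewer cells of a type and less RNA per cell cannot be told apart.

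**Figure D2:**
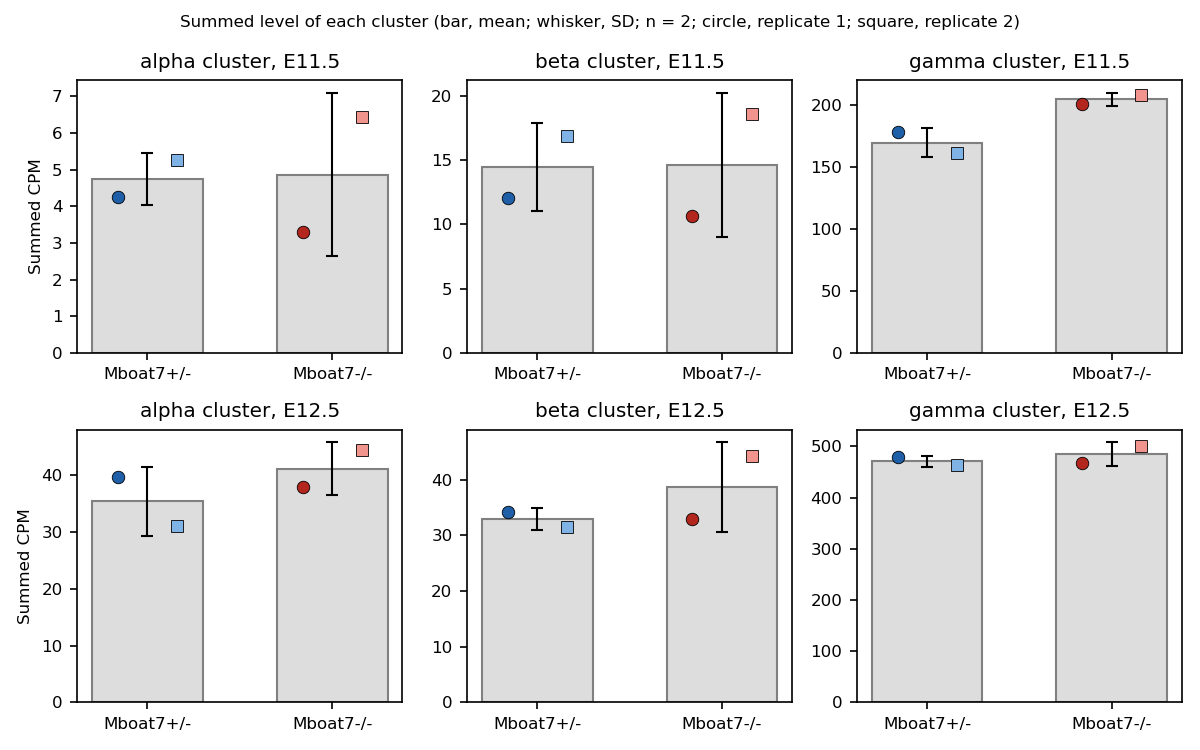
Summed CPM of each cluster at each stage, by genotype. Bars are means, whiskers SDs (n = 2), circles replicate 1 and squares replicate 2, with axes that start at 0 and differ between panels. At E11.5 the gamma sums of the genotypes are apart (178 and 162 CPM against 201 and 208 CPM), and the alpha and beta sums are higher in replicate 2 of each genotype.

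Across the 40 tested members the median log2 fold change at E11.5 was 0.12, beside -0.006 over all genes tested, and 24 members were above 0 (60.0%, against 49.0% of all genes). The medians were 0.18 for the gamma, -0.008 for the beta and -0.42 for the alpha genes. The overall value rested on single cortices, as it was 0.28 without the second Mboat7+/- cortex, 0.37 without the first cortex labelled Mboat7-/- and -0.04 without the second. The 4 tested alpha genes had standard errors of 0.424 to 1.32, so differences of the sizes seen in gamma genes were not detectable in them at this depth.

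At E12.5 the clusters stood at higher counts. The gamma sum was 478 and 463 CPM in Mboat7+/- against 468 and 501 CPM in the cortices labelled Mboat7-/-, and the genotypes overlapped (means 471 ± 10.5 and 484 ± 23.4 CPM, SD, n = 2, log2 ratio 0.04). The alpha sum was 39.6 and 31.1 CPM against 37.8 and 44.4 CPM, a log2 ratio of 0.22, and the beta sum 34.3 and 31.5 CPM against 32.9 and 44.3 CPM, a log2 ratio of 0.22. In all 3 clusters the second cortex labelled Mboat7-/- was the highest of the 4 and the second Mboat7+/- cortex the lowest. Within replicate number 1 the log2 ratios between genotypes were -0.07, -0.06 and -0.03 for alpha, beta and gamma, and within replicate number 2 they were 0.51, 0.49 and 0.11. The direction of the cluster difference thus turned with the pair of cortices compared.

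Of the 58 genes at E12.5, 53 were tested, namely 12 alpha, 19 beta and 22 gamma genes. No member had an FDR under 0.05 in the edgeR quasi-likelihood test, and 0.0184% of the 16326 genes tested did. At an unadjusted p under 0.05, 2 members were higher in the cortices labelled Mboat7-/- and none lower. Over all genes, 2.76% were higher and 1.35% lower. DESeq2 gave 1 member at that level, beside 2.02% of all genes, and none under an FDR of 0.05, beside 10 genes in all. In edgeR the number at the unadjusted level depended on which cortices were kept. Leaving out a cortex gave a median log2 fold change of the members of 0.04 to 0.287. With all cortices, 4.11% of all genes were at the unadjusted level in either direction. Both members of the full fit were alpha genes. Pcdha5 had 30 and 20 counts in Mboat7+/- against 69 and 64 in the others, or 1.44 and 0.926 CPM against 2.996 and 2.83 CPM, with a log2 fold change of 1.30 (SE 0.328, edgeR FDR = 0.913). Its FDR lay between 0.0521 and 1 over the alternatives, and its log2 fold change between 1.01 and 1.65. Pcdha11 had 34 and 31 counts against 50 and 71 (log2 fold change 0.79, SE 0.32, edgeR FDR = 0.957). At E11.5 Pcdha5 had 2 and 10 counts against 2 and 12, and it was below the filter.

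The alpha genes did not share a direction at E12.5. Pcdha2 had 42 and 15 counts in Mboat7+/- against 47 and 70 in the cortices labelled Mboat7-/-, with a log2 fold change of 0.92 (SE 0.446, edgeR FDR = 0.957). Pcdha6 had 37 and 66 counts against 27 and 46, and Pcdha12 had 86 and 72 against 52 and 76, with log2 fold changes of -0.59 (SE 0.38) and -0.41 (SE 0.283). In both of these the genotypes overlapped. The C-type genes overlapped too: Pcdhac1 had 88 and 57 counts against 87 and 97, and Pcdhac2 had 285 and 145 against 312 and 255.

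The most abundant members at E12.5 were C-type gamma genes, Pcdhgc3 and Pcdhgc4, and in both the genotypes overlapped. Pcdhgc3 was at 160 and 151 CPM in Mboat7+/- against 150 and 153 CPM in the others, with a log2 fold change of -0.04 (SE 0.092, edgeR FDR = 0.973). Pcdhgc4 was at 106 and 125 CPM against 109 and 109 CPM, with a log2 fold change of -0.08 (SE 0.102, edgeR FDR = 0.960). Pcdhgc5 had 48 and 46 counts against 58 and 58. Pcdhga1 was the gamma gene with the lowest fold change, -0.33 (SE 0.304), at 82 and 57 counts against 50 and 69. Among the beta genes the most abundant, Pcdhb22, had 94 and 105 counts against 113 and 117, Pcdhb20 had 90 and 70 against 78 and 127, and Pcdhb17 had 81 and 90 against 66 and 112.

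**Figure D3:**
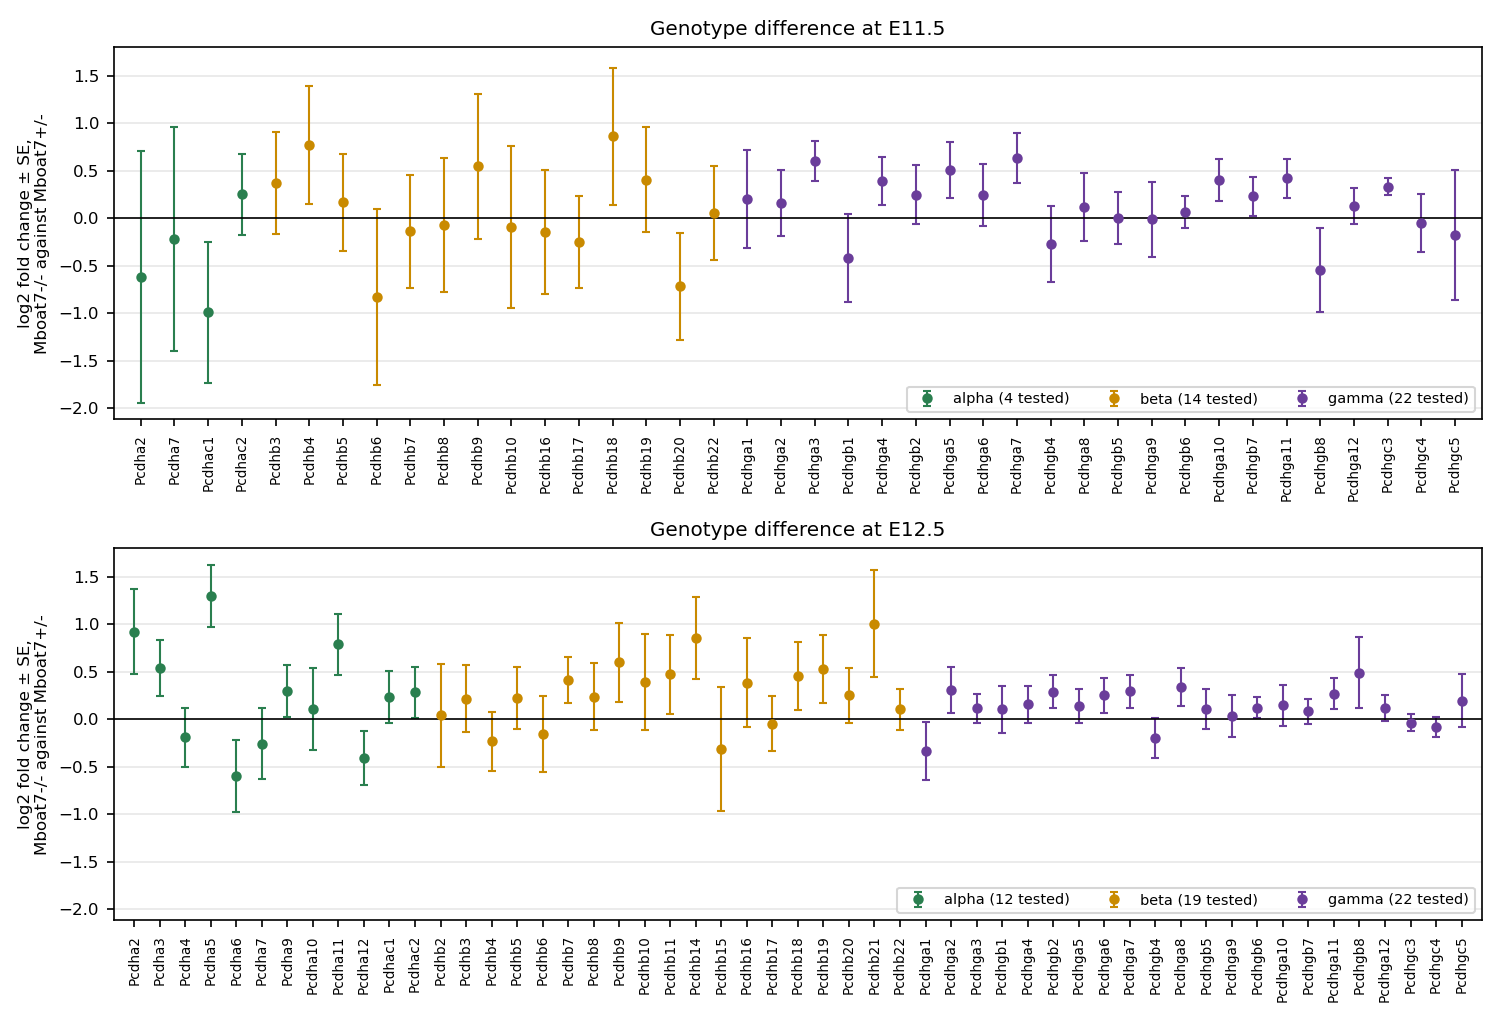
Log2 fold change of each tested member, cortices labelled Mboat7-/- against Mboat7+/-, with its standard error as a whisker, at each stage. Green is alpha, yellow beta and purple gamma, and the number tested is in the key. None passes an FDR of 0.05. The errors are widest for the alpha and beta genes at E11.5, and Pcdhgc3 lies at 0.33 in the upper and -0.04 in the lower panel.

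Across the 53 tested members, 41 had a log2 fold change above 0 at E12.5 (77.4%, against 51.2% of all genes), with a median of 0.22 beside 0.005 over all genes. The medians were 0.26, 0.25 and 0.13 for alpha, beta and gamma. The members share libraries and are not independent of each other, and 42 of the 53 were higher in the second than in the first cortex labelled Mboat7-/-, where 51.0% of all genes were. Without that second cortex the median was 0.04, and without the second Mboat7+/- cortex it was 0.07. Both labelled Mboat7-/- cortices were above both Mboat7+/- cortices in 19 members, 35.8%, and below in none, while 16.9% of all genes were above and 15.2% below. The 19 were 5 alpha, 7 beta and 7 gamma genes.

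The values of each member in the separately made tables can be set side by side, with stage, provider and annotation as one difference. For the 19 gamma A and B genes the mean CPM in the E12.5 table was 0.647 to 3.38 times that in the E11.5 table, with a median of 2.24, and for the 16 beta genes above the floor in all cortices it was 1.31 to 3.67 times, with a median of 2.31. The 3 alpha genes above the floor in all 8 cortices stood at 5.14 to 8.39 times. Over all genes fitted at both stages the median was 0.850. Pcdhgc3 was at 1.84 times and Pcdhgc5 at 3.53 times. Pcdhgc4 stood apart, at 3.71 CPM in the E11.5 table and 112 CPM in the E12.5 table, 30.3 times, which made it the second gene of the family at E12.5 with 32.3 CPM per kilobase of unshared exon beside 45.4 for Pcdhgc3. It had 85 to 106 counts in the E11.5 cortices and 2206 to 2698 in the E12.5 cortices. Whether Pcdhgc4 was counted over the same exons in both tables was not tested. Pcdhgb8 was the only A or B gene with a lower mean in the E12.5 table, 1.33 against 2.06 CPM. The order of the members was similar, with a Spearman rho of the mean CPM across genes of 0.96 for the 19 gamma A and B genes, 0.94 for the 22 beta genes and 0.77 for 14 alpha genes. These are descriptions over genes of the same 8 libraries.

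**Figure D4:**
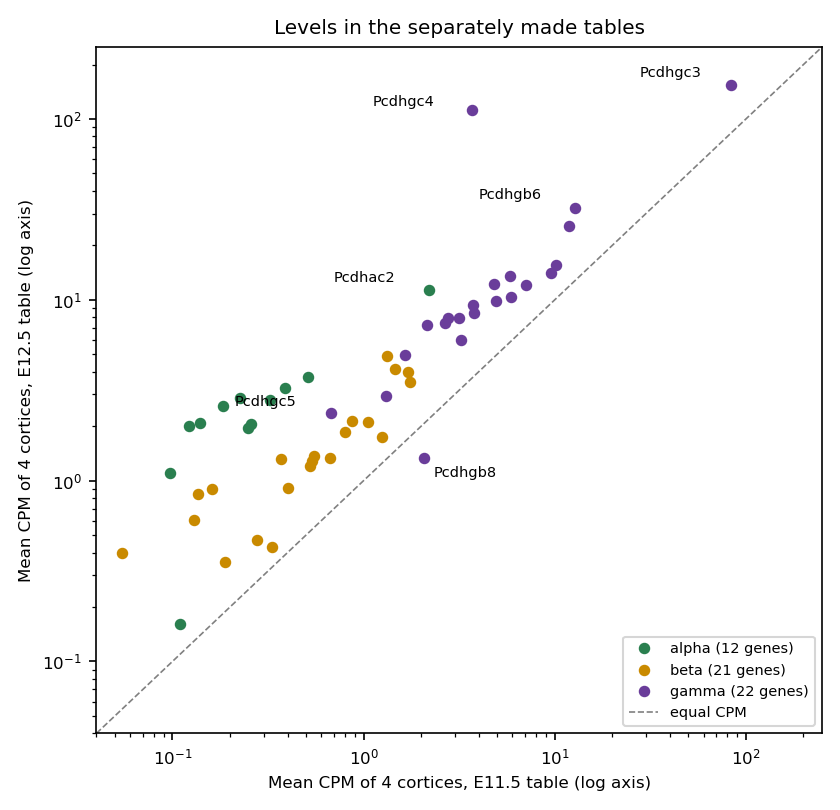
Mean CPM of each member over the 4 cortices of the E12.5 table against that of the E11.5 table (log axes), for genes with a count in both. The dashed line marks equal CPM. Most members lie along a band above the line, Pcdhgc4 lies far above it (3.71 and 112 CPM), and Pcdhgb8 lies under it.

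When both stages entered 1 fit that also held stage, 53 members were tested, and none had an FDR under 0.05 by edgeR's quasi-likelihood test, as was so for 0% of 14219 genes. At an unadjusted p under 0.05, 3 members were higher in the cortices labelled Mboat7-/- and none lower, beside 6.71% and 4.66% of all genes. DESeq2 gave no member and 10 genes in all under an FDR of 0.05. At the unadjusted level it gave 3 members, beside 10.6% of all genes. Leaving out a cortex gave from 1 member, without the second E11.5 cortex labelled Mboat7-/-, to 5, while the share over all genes ran from 6.33% to 15.7%. The 3 members were Pcdhga7, with a log2 fold change of 0.45 (SE 0.156, edgeR FDR = 0.381), Pcdhga3, with 0.35 (SE 0.134, edgeR FDR = 0.401), and Pcdhga11, with 0.34 (SE 0.137, edgeR FDR = 0.406). All 3 are gamma A genes. At E12.5 alone the log2 fold changes of Pcdhga7, Pcdhga3 and Pcdhga11 were 0.29, 0.12 and 0.27, and in each the genotypes overlapped. The gamma A and gamma B sums overlapped at E12.5 too, with log2 ratios of 0.185 and 0.116. The interaction of stage and genotype called no member, as it called 0% of all genes. At an unadjusted p under 0.05 it gave 1 member lower and none higher, beside 3.15% and 2.68% of all genes. DESeq2 gave no member and 13 genes in all under an FDR of 0.05. At the unadjusted level it likewise gave 1 member lower, beside 4.75% of all genes. That member was Pcdhgc3, with a difference of -0.37 on the log2 scale between the genotype effect at E12.5 and that at E11.5 (SE 0.123, edgeR FDR = 0.817). Without the second E11.5 cortex labelled Mboat7-/-, 6 members were higher and 1 lower at the unadjusted level, as were 11.1% of all genes in either direction (5.83% with all cortices), and none was called, beside 109 of all genes.

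Genes that act on the clusters were examined from lists chosen with earlier results of these data known. The E11.5 table lists 18 chromatin regulators, among them the cohesin subunits and CTCF. At an unadjusted p under 0.05, 7 of the 18 were higher in the cortices labelled Mboat7-/-, beside 7.94% of all genes. The log2 fold change was positive for 16 of the 18, beside 49.0% of all genes, and the median of the 18 was 0.15. None of the 18 had an FDR under 0.05 (edgeR quasi-likelihood, lowest FDR = 0.184). Nipbl, which loads cohesin onto DNA, had 2323 and 2776 counts against 3765 and 3426, with a log2 fold change of 0.36 (SE 0.068, edgeR FDR = 0.184). Rest, a repressor of neuronal genes that binds an enhancer of the alpha cluster, had 363 and 412 counts against 774 and 571, with a log2 fold change of 0.65 (SE 0.146, edgeR FDR = 0.190). Neither gene overlapped between genotypes, and 23.1% of all genes tested had both labelled Mboat7-/- cortices above both Mboat7+/- cortices. At E12.5 none of 19 regulators had an unadjusted p under 0.05, 12 were above 0, beside 51.2% of all genes, and the median was 0.02. Rest and Nipbl again had the lowest p, Nipbl being at 1842 and 1506 counts against 2049 and 2199 (log2 fold change 0.23, SE 0.118, edgeR FDR = 0.957), and Rest was at 557 and 564 against 669 and 753 (log2 fold change 0.24, SE 0.112, edgeR FDR = 0.957).

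Of 17 genes for binding partners and signalling of the proteins, 3 were higher and 2 lower at an unadjusted p under 0.05 at E11.5. None passed that level at E12.5, and the medians were 0.03 and 0.007. Over all genes, 7.94% were higher and 5.81% lower at that level at E11.5, and 2.76% and 1.35% at E12.5. Fyn, a kinase bound by the alpha proteins, had a log2 fold change of -0.20 (SE 0.073, edgeR FDR = 0.282) and Adam10, which cleaves gamma proteins at the membrane, one of 0.19 (SE 0.074, edgeR FDR = 0.314). At E12.5 the lowest p belonged to Axin1, at -0.14 (SE 0.09), and Nlgn1, at 0.23 (SE 0.158). The 12 protocadherins outside the clusters had medians of 0.006 at E11.5 and 0.13 at E12.5, and none had an FDR under 0.05 at either stage by edgeR. At an unadjusted p under 0.05 there was 1 at E11.5, Pcdh18, with 1818 and 2080 counts against 2749 and 2466 (log2 fold change 0.28, SE 0.074, edgeR FDR = 0.207), and none at E12.5.

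Markers of other cell types differed between the same cortices. At E11.5, 7 of 10 mesenchyme markers were higher in the cortices labelled Mboat7-/- at an unadjusted p under 0.05, beside 7.94% of all genes. None of the 10 markers had an FDR under 0.05. Their summed level was 1694 and 1658 CPM against 1937 and 2107 CPM, with no marker at 0, so that the 4 cortices stood in the same order as for the gamma sum. Endothelial markers summed to 240 and 227 CPM against 260 and 258 CPM. Blood markers went the other way, with 5 of 6 tested genes lower at an unadjusted p under 0.05, beside 5.81% of all genes. The blood markers summed to 6934 and 5217 CPM against 3633 and 3865 CPM, and Hba-a1 and Hba-a2 were listed at 0 in the E11.5 table. At E12.5, mesenchyme markers summed to 712 and 552 CPM against 689 and 741 CPM, which were lowest and highest in the same cortices as the 3 cluster sums, while neuron markers lay close together, between 4062 and 4362 CPM. Blood markers were highest, at 7770 CPM, in the second Mboat7+/- cortex and lowest, at 3834 CPM, in the second cortex labelled Mboat7-/-. The part of these cells in the protocadherin values was not tested.

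**Figure D5:**
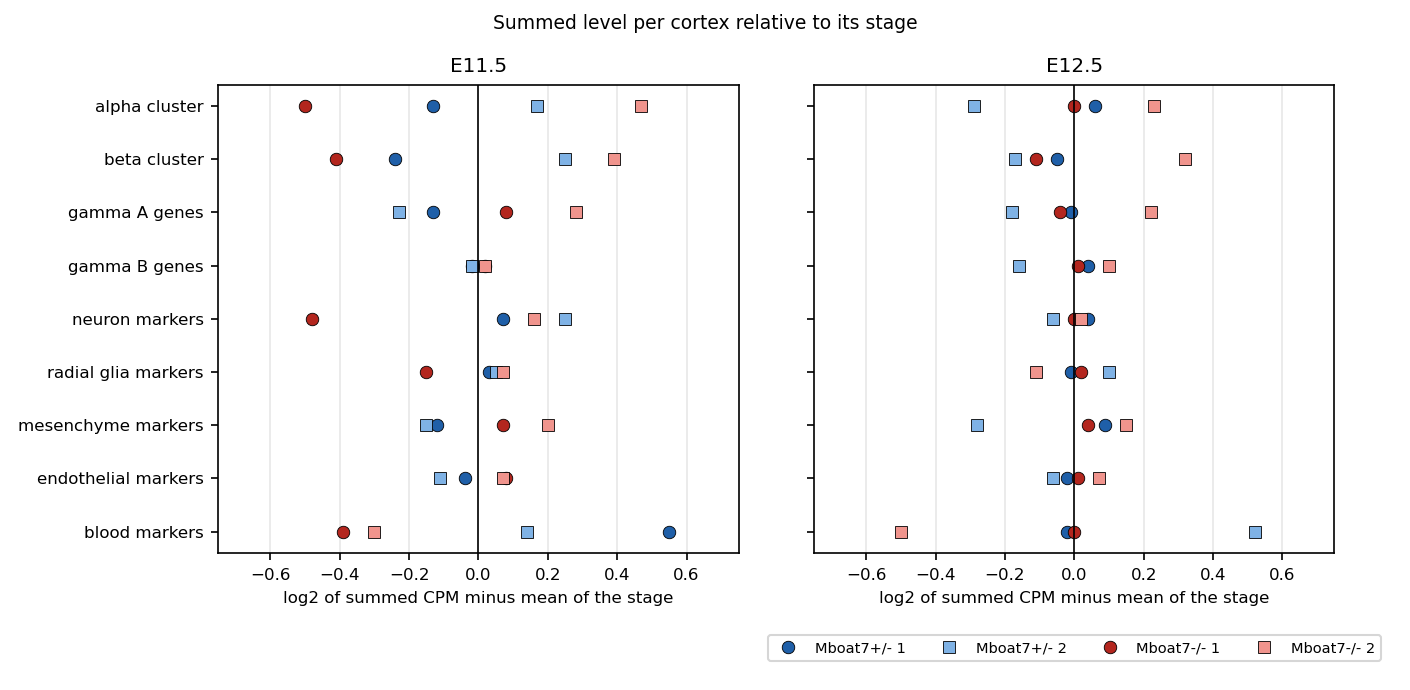
Summed level of protocadherin groups and of marker lists in each cortex, as the log2 of the summed CPM minus the mean of the 4 cortices of the stage. Blue is Mboat7+/-, red is labelled Mboat7-/-, circles are replicate 1 and squares replicate 2. At E11.5 the alpha and beta sums span -0.50 to 0.47 and the gamma B sum stays within 0.02 of the mean, and at E12.5 the second cortex labelled Mboat7-/- is highest in every protocadherin group.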

How the data were processed

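Raw read counts per gene, without normalization, were deposited by the authors for each stage, with a column per embryo. Per the labels, libraries were directional and poly(A)-selected, and the submitters' processing notes name HISAT2, Subread, mm10 and GRCm39, with no role or version. Members and gene lists were chosen with earlier results of these data known. E12.5 identifiers were paired with symbols (81.4% of counted genes), and the identifier paired with Pcdha11 whose transcript is that of Pcdha10 was taken as Pcdha10. All deposited columns were used. No member sequence or coordinate is given.

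Each stage was fitted in R 4.3.3 with edgeR 4.0.16, after TMM scaling and filterByExpr at its minimum of 10 counts, by quasi-likelihood tests of genotype with p-values adjusted over all genes by Benjamini and Hochberg. CPM used TMM library sizes, the floor total counts. Both stages were also fitted jointly, with stage beside genotype and then with their interaction. Nothing in the labels says that embryos came from separate litters. The fits were tested on simulated data. Levels per kilobase used unshared exonic bases of GENCODE M21. Summaries used pandas 2.3.3 and numpy 2.4.6 in Python 3.11.15, and plots matplotlib 3.10.9.

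Alternatives were DESeq2 1.42.0, RLE or upper-quartile scaling, no filter, a minimum of 10 counts in each cortex, the replicate block, removal of a length and GC trend with splines of 5 degrees of freedom with and without the block, and leaving out each cortex. After the data were seen, halved E11.5 counts and a crossed pairing at E12.5 were added. A batch label equal to the replicate number pairs the cortices. Across genes, departures from the genotype mean correlated at 0.08 (E11.5) and -0.20 (E12.5) between cortices with the same number.

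Genes named are the C-type genes, the 3 members of each cluster with the highest mean CPM at a stage, the 3 tested members with the lowest p in each direction at a stage, members with no count at a stage, every member with an FDR under 0.05, and the 2 genes of each list with the lowest p at a stage. Pcdhgb8 and Pcdhga11 in the stage comparison, and the grouping into A and B genes, were singled out after their values were seen.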

Additional observations from a re-analysis of the deposited data

How the results depend on the processing

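With 2 cortices per genotype, and low counts for alpha and beta genes at E11.5, several values turned on a single cortex, as given below. A fit on 3 cortices assumes that the lone one varies like the others. Members called at E11.5 numbered 1 (Pcdhgc3) with no filter and 1 with the replicate block, where 317 and 349 genes were called in all, and 0 to 1 when a cortex was left out (1 to 1180 of all genes), and the block changed no other call. No member was called at E12.5, over both stages or for the interaction under any alternative that kept all cortices. Those alternatives called up to 148 genes in all at E12.5, 75 over both stages and 57 for the interaction. Members with an unadjusted p under 0.05 numbered 0 to 5 at E11.5 when a cortex was left out (6.39% to 20.6% of all genes). At E12.5 they numbered 1 with DESeq2 (2.02% of all genes), 4 with the length and GC trend removed and the replicate block (3.66%), and 2 to 11 when a cortex was left out (1.88% to 11.7%). Crossing the replicate numbers at E12.5, a pairing added after the data were seen, gave 5 such members (12.4% of all genes) and called no member and 148 genes in all. Halving the E11.5 counts, also added after the data were seen, left 29 members tested at E11.5, with a median log2 fold change of 0.159. No member was called in that fit, nor any other gene, and 3 members had an unadjusted p under 0.05 (14.4% of all genes). Leaving out a cortex gave medians of -0.038 to 0.374 (E11.5) and 0.04 to 0.287 (E12.5).

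Within replicate 1 and replicate 2 (the replicate block for cluster sums), the log2 ratio of the gamma sum at E11.5 was 0.175 and 0.366. At E12.5 it was -0.068 and 0.513 for alpha, -0.058 and 0.493 for beta, and -0.033 and 0.112 for gamma, whose ratio without the C-type genes was 0.159. The causes were not tested. Of the genes named, none of them called, the following log2 fold changes took either sign when a cortex was left out. At E11.5 they ran from -0.3 to 0.66 for Pcdhac2, -1.36 to 0.53 for Pcdhb7, -0.64 to 0.29 for Pcdhb17, -1.23 to 0.13 for Pcdhb20, -0.06 to 0.18 for Pcdhgb6, -0.32 to 0.19 for Pcdhgc4 and -0.75 to 0.72 for Pcdhgc5. At E12.5 they ran from -0.07 to 0.61 for Pcdhac1, -0.14 to 0.88 for Pcdhac2, -0.49 to 0.29 for Pcdhb17, -0.16 to 0.56 for Pcdhb20, -0.08 to 0.01 for Pcdhgc3 and -0.2 to 0.04 for Pcdhgc4.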
